A study of Mus musculus with 15 samples.

Results

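The matrix crosslinking and matricellular fibrosis genes comprised 10 of the 56980 genes in the deposited expression table. They were chosen by name and role, but with earlier results of these data known. They were the lysyl oxidases Lox, Loxl1 and Loxl2, the scaffold genes Fn1 and Aebp1, and the matricellular genes Postn, Sparc, Thbs1, Thbs4 and Tnc. Their Ensembl identifiers were matched to GENCODE mouse symbols, and all 10 passed the filter on low values in every comparison. RNA-seq had been run on tibialis anterior (TA) muscle and heart tissue of DBA/2J-mdx mice, which lack dystrophin and develop a severe muscular dystrophy. Mice received vehicle or dasatinib and quercetin (D + Q), a combination of a kinase inhibitor and a flavonoid given to remove senescent cells. TA was taken from 4 D + Q–treated and 4 vehicle-treated mice, treated for 2 months from an age of 3 months and collected at 5 months. Hearts came from 3 D + Q–treated and 4 vehicle-treated mice, treated for 4 months from an age of 12 months and collected at 16 months. All 4 groups carried the DBA/2J-mdx genotype, so no group without muscular dystrophy entered the comparisons. Tissue, age and length of treatment changed together between TA and heart and cannot be told apart.

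Fibrosis is the build-up of extracellular matrix, made mostly by fibroblasts. Fibronectin is laid down early and gives collagen a scaffold on which to assemble, and lysyl oxidases then oxidize lysine residues of collagen and elastin so that the fibers become covalently crosslinked and stiff. Matricellular proteins such as periostin, SPARC, the thrombospondins and tenascin-C sit in the matrix without being its main building blocks, and act on its assembly and on the cells in contact with it. In dystrophic skeletal muscle and heart this matrix replaces lost muscle fibers.

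Promoter windows from RefSeq were found for 5 of the 10 genes (Aebp1, Postn, Sparc, Thbs4 and Tnc) in 7 windows, of which the 250 bases before the start of transcription were searched. Each window matched a single place in GRCm39. The 3 shown belong to Aebp1, which had the smallest p-value of the 10 genes in heart, Postn, which had the largest D + Q difference there, and Thbs4, which had the largest difference between the tissues. Aebp1 and Thbs4 are cut where the longest GENCODE gene model begins, and the last 27 bases of the Postn window lie inside that model. Capitals mark the motifs searched on both strands, the TATA box (TATAAA), the AP-1 motif (TGANTCA) and the TEAD motif (GGAATG, or CATTCC on the other strand).
Aebp1, 146 bases, GRCm39 chr11:5811616-5811761, plus strand, upstream of the gene: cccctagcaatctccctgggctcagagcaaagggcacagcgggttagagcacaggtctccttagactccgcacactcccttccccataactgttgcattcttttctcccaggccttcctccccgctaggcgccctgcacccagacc
Postn, 250 bases, GRCm39 chr3:54268278-54268527, plus strand, upstream of and at the start of the gene: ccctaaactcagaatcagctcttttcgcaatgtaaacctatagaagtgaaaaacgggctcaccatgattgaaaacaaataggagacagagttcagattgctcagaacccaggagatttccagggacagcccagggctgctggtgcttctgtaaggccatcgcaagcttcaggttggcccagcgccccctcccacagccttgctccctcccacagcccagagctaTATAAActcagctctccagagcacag
Thbs4, 75 bases, GRCm39 chr13:92931502-92931576, minus strand, upstream of the gene: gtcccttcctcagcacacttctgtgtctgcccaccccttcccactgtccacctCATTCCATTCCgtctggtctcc
The Postn window shown held a TATA box that begins 26 bases before the RefSeq start, inside the longest GENCODE gene model. The other Postn window held none, and both Tnc windows, which overlap, held one. Of all 32851 windows of this length, 12.4% held one somewhere. In the Thbs4 window the TEAD letters occurred 2 times, sharing 1 base, and 12.6% of all windows held them. The AP-1 letters were in 0 of the 7 windows of these genes and in 6.75% of all windows. A match describes the letters and shows neither binding nor regulation.

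Each library held 1 mouse and summed to 1000000 TPM, a transcript abundance corrected for transcript length that can therefore be set side by side between genes. The unit drops the sequencing depth, which is unknown here, and precision rests on the spread between mice. Between 21830 and 25378 genes were above 0 per library. Fast skeletal myosin Myh4 lay between 4190 and 5850 TPM in the TA libraries and ventricular myosin Myh6 between 4000 and 5740 TPM in the hearts, as their labels say. One heart went against its labelled sex: D + Q replicate 3, labelled male, had Xist at 47.2 TPM and the Y-linked Ddx3y at 0.0159 TPM, so that all 3 D + Q hearts resembled females. The 4 D + Q–treated TA mice were all male, whereas vehicle TA replicates 2 and 4 were female. The vehicle hearts differed from the D + Q hearts in atrial muscle RNA. Atrial markers (5 genes) summed to 864, 4260, 2220 and 1100 TPM in vehicle and 382, 427 and 427 TPM in D + Q hearts. Most of this sum was Nppa (mean 1370 TPM in vehicle and 404 TPM in D + Q hearts). The atrial light chain Myl7 lay between 94.1 and 730 TPM in vehicle and between 3.46 and 4.54 TPM in D + Q hearts. In bulk tissue, fewer cells of a type and less RNA per cell cannot be told apart.

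Sparc was the most abundant of the 10 genes in all 4 groups, with means of 453 ± 85 TPM in vehicle TA, 374 ± 66.2 TPM in D + Q TA (SD, n = 4 each), 181 ± 11.3 TPM in vehicle heart (n = 4) and 150 ± 9.6 TPM in D + Q heart (n = 3). Tnc had the lowest mean in each group, from 16.8 ± 4.36 TPM in vehicle TA to 0.806 ± 0.201 TPM in D + Q heart. In vehicle TA the next in order were Thbs4 at 238 ± 95.7 TPM and Fn1 at 196 ± 30.2 TPM, which lay within the spread of each other. Vehicle hearts had another order: Postn followed Sparc at 66.1 ± 30.1 TPM, then Fn1 at 28.2 ± 10.7 TPM, while Thbs4 stood eighth at 6.16 ± 1.75 TPM. The 3 lysyl oxidases had near-equal means in vehicle TA (18.8 to 20.1 TPM), but in vehicle heart Loxl1 reached 15.3 ± 2.75 TPM and Lox 2.08 ± 0.646 TPM.

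**Figure D1:**
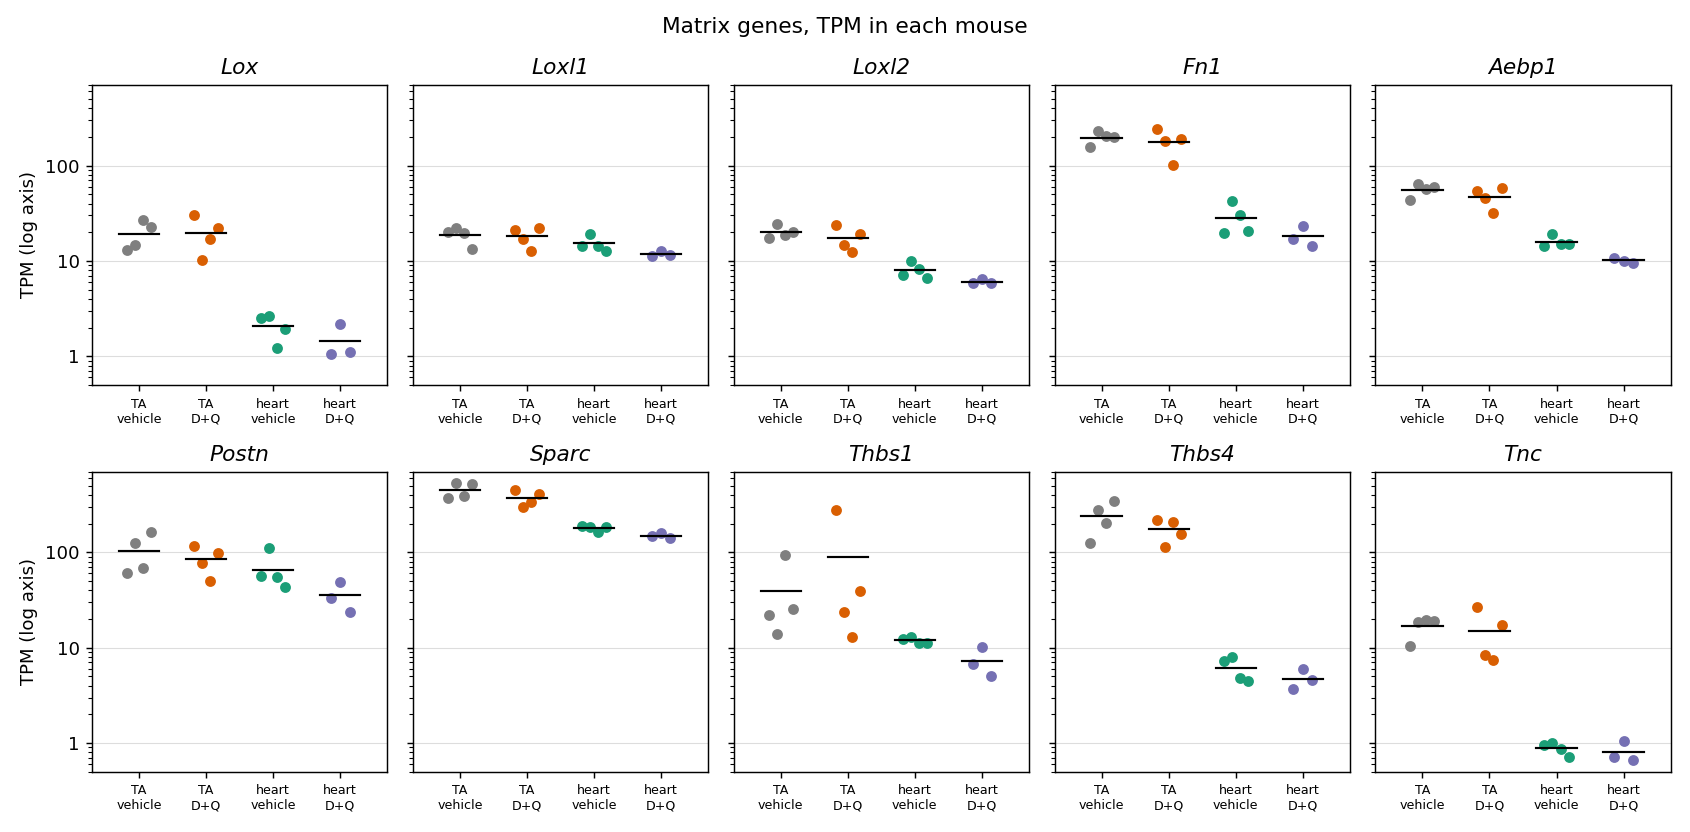
TPM of the 10 matrix genes in each of the 15 mice (points, logarithmic y axis shared by all panels), with the mean of each group as a line. TA values of Lox, Fn1, Thbs4 and Tnc lie far above all heart values, and Thbs1 in D + Q TA replicate 1 stands at 277 TPM.

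The first question was whether D + Q changed matrix gene expression in the heart, treated late in the disease. All 10 genes had lower fitted levels in the D + Q hearts, as had 50.5% of all genes tested. None of the 10 was a differentially expressed gene (DEG), defined by an adjusted p-value (limma, Benjamini-Hochberg) under 0.05 and an absolute log2 difference above 0.5. Of all 16132 genes tested, 51 were DEGs (0.316%). At an unadjusted p-value under 0.05, 7 of the 10 genes were lower, where 17.6% of all genes passed in either direction, and 4 of them also exceeded the size threshold (in this direction, 3.79% of all genes). The median log2 difference was -0.40 for the 10 genes and -0.0025 for all genes tested. Differences are D + Q minus vehicle in log2(TPM + 0.5) with labelled sex in the model, a scale that understates changes of genes with low TPM. Without the D + Q heart that went against its label, all 10 differences were below 0 with a median of -0.49. With sex read from expression the median was -0.52, with 0 DEGs among the 10 genes in both fits. All D + Q hearts counted as female in both, so they were compared with the female vehicle hearts, replicates 2 and 3, alone. Those hearts had the highest summed atrial markers (4260 and 2220 TPM), and replicate 2 had the highest value of its group in 9 of the 10 genes.

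Aebp1 encodes a secreted collagen-binding protein (ACLP) that supports collagen fiber assembly. It was expressed at 14.5, 19.1, 14.9 and 15.2 TPM in the vehicle hearts and at 10.7, 10.1 and 9.57 TPM in the D + Q hearts, so every treated heart lay below every control. The log2 difference was -0.65 (SE 0.10, adjusted p = 0.0614), just outside the threshold. It was a DEG after rescaling by median-of-ratios factors (adjusted p = 0.0485) and without vehicle replicate 3 (-0.73, adjusted p = 0.0371), and over the fits that left out 1 heart the adjusted p ranged from 0.0371 to 0.227. Fn1, which encodes fibronectin, was at 19.4, 42.5, 30.3 and 20.7 TPM in vehicle and at 17.1, 23.1 and 14.5 TPM in D + Q hearts. The groups overlapped through D + Q replicate 2, and the log2 difference was -0.68 (SE 0.16, adjusted p = 0.112).

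Among the lysyl oxidases, Loxl1 and Loxl2 were separated between the groups and Lox was not. Loxl1, which acts mainly in elastic fiber formation, was at 14.5, 19.2, 14.5 and 12.8 TPM in vehicle and at 11.3, 12.6 and 11.5 TPM in D + Q hearts (log2 difference -0.38, SE 0.12, adjusted p = 0.172). Loxl2, known for crosslinking of basement membrane collagen, was at 7.05, 10.1, 8.23 and 6.57 TPM in vehicle and at 5.94, 6.42 and 5.84 TPM in D + Q hearts (log2 difference -0.40, SE 0.11, adjusted p = 0.148). For both, the lowest vehicle heart, replicate 4, stood barely above the highest D + Q heart, replicate 2. Lox itself was low, at 2.55, 2.62, 1.23 and 1.95 TPM in vehicle and 1.07, 2.19 and 1.12 TPM in D + Q hearts, with a log2 difference of -0.41 (SE 0.29, adjusted p = 0.509) and overlapping groups.

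The matricellular genes included the largest and the smallest D + Q difference of the 10 genes in heart. Postn encodes periostin, a product of activated fibroblasts, and was at 55.8, 110, 55 and 43.1 TPM in vehicle and 33.5, 49 and 23.7 TPM in D + Q hearts. Its log2 difference of -0.98 (SE 0.25, adjusted p = 0.126) was the largest, but D + Q replicate 2 lay above vehicle replicate 4. Without vehicle replicate 2, the heart with 110 TPM, the difference was -0.74. Thbs1 encodes thrombospondin-1, an activator of latent TGF-β, and was at 12.3, 12.8, 11.3 and 11.3 TPM in vehicle and at 6.68, 10.1 and 5.06 TPM in D + Q hearts. Here the vehicle hearts were tight, the groups did not overlap, and the log2 difference was -0.77 (SE 0.18, adjusted p = 0.114). Sparc, a collagen-binding protein of the matrix, was at 187, 186, 164 and 185 TPM in vehicle and at 148, 160 and 141 TPM in D + Q hearts. The groups were separated by a small difference of -0.27 (SE 0.07, adjusted p = 0.142).

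Thbs4, a thrombospondin of muscle and tendon, was at 7.29, 8, 4.84 and 4.49 TPM in vehicle and at 3.67, 5.91 and 4.59 TPM in D + Q hearts. Tnc, the tenascin of regenerating and developing tissue, was at 0.946, 1.01, 0.876 and 0.718 TPM against 0.71, 1.04 and 0.671 TPM. Both overlapped between the groups, with log2 differences of -0.35 (SE 0.24, adjusted p = 0.503) and -0.12 (SE 0.16, adjusted p = 0.743). In all, 5 of the 10 genes (Aebp1, Loxl1, Loxl2, Sparc and Thbs1) had all D + Q hearts below all vehicle hearts, as did 5.57% of all genes tested.

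**Figure D2:**
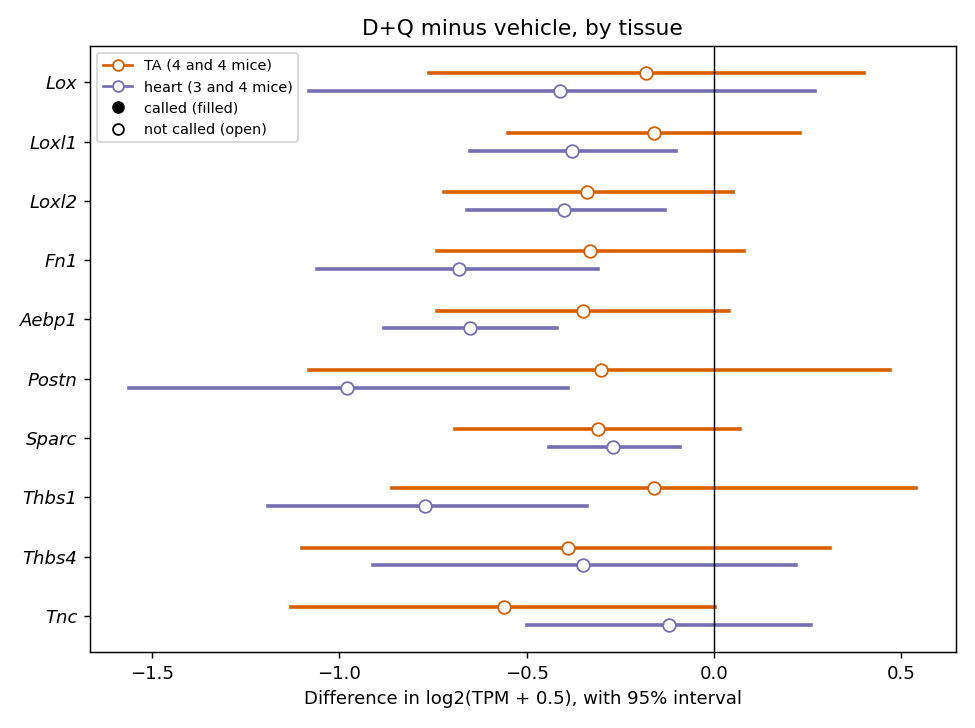
Difference between D + Q–treated and vehicle-treated mice in log2(TPM + 0.5) (x axis) for each gene (y axis), with 95% intervals, in TA (4 and 4 mice, 1 surrogate variable in the model) and heart (3 and 4 mice, labelled sex in the model). All 20 estimates are below 0 and all are open circles, that is, none was a DEG, and the heart intervals of Loxl1, Loxl2, Fn1, Aebp1, Postn, Sparc and Thbs1 do not reach 0.

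Markers of other cell types also differed between the heart groups. Atrial markers were lower in D + Q hearts, with 3 of 5 (Myl7, Myl4 and Sln) DEGs, and their summed ranges are given above. Summed red cell markers lay between 346 and 1230 TPM in vehicle and between 26.8 and 122 TPM in D + Q hearts, epicardial or mesothelial markers between 17.8 and 25.5 TPM against 12.8 to 15.9 TPM, and platelet markers between 38.2 and 87 TPM against 18.9 to 51.3 TPM. In the other direction, ventricular markers summed to 17300 to 19600 TPM in vehicle and 22100 to 23400 TPM in D + Q hearts. Fibroblast markers (Pdgfra, Dcn, Lum, Dpt and Pdgfrb) summed to 506 to 741 TPM against 419 to 482 TPM with 0 of 5 DEGs. Most of this sum was Dcn (mean 441 TPM in vehicle and 333 TPM in D + Q hearts, log2 difference -0.41, SE 0.14), the only one of them without overlap. Dpt was at -0.28, Lum at -0.16, Pdgfra at -0.09 and Pdgfrb at -0.02. The summed myofibroblast markers overlapped at 217 to 379 TPM against 253 to 295 TPM, a sum made up mostly of the smooth muscle actin Acta2 (mean 268 TPM in vehicle and 263 TPM in D + Q hearts). Among the 4 members, Tagln and Cthrc1 did not overlap. Tagln had means of 15.8 and 10.1 TPM (log2 difference -0.62, SE 0.21, adjusted p = 0.195), and Cthrc1, too low for the test, lay between 0.288 and 0.783 TPM in vehicle and between 0 and 0.0816 TPM in D + Q hearts. Tendon markers summed to 7.21 to 10.7 TPM in vehicle and 6.08 to 7.06 TPM in D + Q hearts, but the 2 members tested moved in opposite directions. Fmod was lower, with means of 5.15 TPM in vehicle and 1.95 TPM in D + Q hearts (-1.25, SE 0.24, adjusted p = 0.0934). Scx was higher, with means of 3.16 and 4.31 TPM (0.38, SE 0.13, adjusted p = 0.206). Neither gene overlapped between the groups, so the sum does not stand for tendon markers as a set. Of 4 smooth muscle markers, Myh11 (-0.53, SE 0.15), Cnn1 (-0.94, SE 0.32) and Actg2 (-0.75, SE 0.22) were lower at an unadjusted p-value under 0.05, while summed levels overlapped at 72.3 to 87.5 TPM against 68.8 to 79.1 TPM. The fast skeletal troponin Tnnt3 was at 0.219 to 0.882 TPM in vehicle hearts and at 1.77, 21.5 and 1.3 TPM in D + Q hearts (adjusted p = 0.23). Vehicle replicate 2 had the highest atrial, red cell, platelet and fibroblast sums of the 7 hearts and also the highest value of its group in 9 of the 10 matrix genes. An atrial score, the mean log2(TPM + 0.5) of the 5 atrial markers, was instead highest in vehicle replicate 3 (7.46, and 7.05 in replicate 2). Vehicle replicate 3 held the highest value of its group for 0 of the 10 genes.

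The atrial score, put in place of sex in the model, correlated at -0.958 with treatment over the 7 hearts, so the 2 can hardly be told apart. In that fit Fn1 was at 1.11 (SE 0.77) and Loxl2 at 0.23 (SE 0.49), both above 0, while the median of the 10 genes was -0.19 and all adjusted p-values were at least 0.835. Leaving out vehicle replicates 2 and 3, the hearts with the most Myl7, gave differences below 0 for all 10 genes, with a median of -0.43 and Aebp1 at -0.61. The vehicle hearts left were both labelled male, so with labelled sex in the model they were compared with D + Q replicate 3 alone. That heart went against its label, and its atrial sum was 427 TPM against 864 and 1100 TPM in the vehicle hearts left. The atrial score was 2.08 in that heart and 5.27 and 6.77 in the vehicle hearts left. The part of these cell types in the matrix gene differences was not tested beyond these fits.

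**Figure D3:**
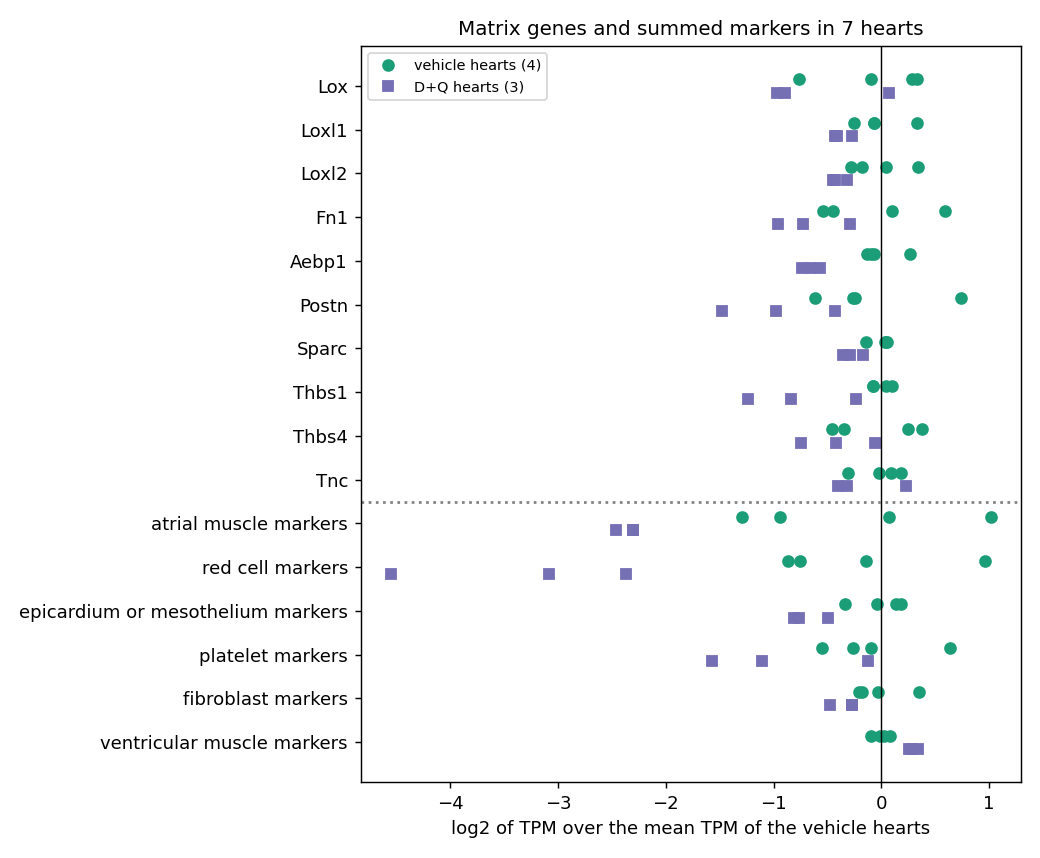
Each of the 7 hearts relative to the mean of the vehicle hearts (x axis, log2 of TPM ratio) for the 10 matrix genes (above the dotted line) and for summed cell type markers (below). D + Q hearts (squares) lie left of the vehicle hearts (circles) for Aebp1, Loxl1, Loxl2, Sparc and Thbs1, further left for atrial and red cell markers, and right of them for ventricular markers.

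In TA, treated early in the disease, no D + Q effect on the 10 genes was detected. None of the 10 and 0 of all 16298 genes tested were DEGs (0%) with limma and 1 surrogate variable in the model, while 488 passed an unadjusted p-value of 0.05. The fitted differences of the 10 genes were all below 0, from -0.56 (Tnc) to -0.16 (Loxl1 and Thbs1), each with an adjusted p of 0.999, and 66.4% of all genes were below 0 in this fit. The median was -0.32 for the 10 genes and -0.07 for all genes. All 10 genes overlapped between the groups, and the sign was not stable: without a covariate Lox was at 0.0019 (SE 0.32) and Thbs1 at 0.55 (SE 0.86), and with labelled sex as covariate Postn was at 0.34 (SE 0.30) and Thbs4 at 0.08 (SE 0.29).

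Thbs1 varied most between mice. It was at 277, 23.9, 12.9 and 39.1 TPM in the D + Q and at 22, 13.8, 94.2 and 25.3 TPM in the vehicle muscles. A single mouse in each group stood far above the rest, D + Q replicate 1 and vehicle replicate 3. The same 2 muscles had the highest summed platelet markers of their groups, 63.8 and 39.9 TPM against 17 to 33 TPM and 17.1 to 27.7 TPM in the others. Most of this sum was the single gene Pf4 (mean 31.2 TPM in D + Q and 25.2 TPM in vehicle TA). These 2 muscles also had the highest surrogate variable, 0.70 and 0.30. The part of platelets in the Thbs1 values was not tested. The mean TPM was 2.27-fold higher with D + Q, against a fitted difference of -0.16 (SE 0.32), and without those 2 mice the fitted difference was 0.20 (SE 0.40, adjusted p = 0.871).

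Tnc had the largest fitted difference in TA. Its values were 26.5, 8.48, 7.39 and 17.1 TPM with D + Q and 10.3, 18.5, 19.5 and 18.9 TPM with vehicle, so that D + Q replicate 1 was above all controls and D + Q replicates 2 and 3 below them. The fitted difference was -0.56 (SE 0.25, unadjusted p = 0.0513), and -0.09 without D + Q replicate 3. Thbs4 measured 219, 115, 208 and 155 TPM with D + Q against 125, 275, 204 and 349 TPM with vehicle (log2 difference -0.39, SE 0.32). Postn values were 116, 76.8, 49.5 and 98.7 TPM after D + Q, compared with 60.1, 126, 68 and 163 TPM with vehicle (-0.30, SE 0.35). Sparc was at 448, 301, 339 and 407 TPM against 368, 538, 392 and 514 TPM (-0.31, SE 0.17). For these 3 genes the highest vehicle muscles were replicates 2 and 4, the females, in which summed tendon markers also reached 257 and 417 TPM, compared with 73.3 and 138 TPM in vehicle replicates 1 and 3. Among the D + Q muscles, all male, tendon markers were highest in replicate 3 at 260 TPM. With the males alone the median difference of the 10 genes was -0.07, and the part of tendon was not tested.

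The crosslinkers and scaffold genes also overlapped between the groups in TA. Lox values were 30.2, 10.3, 17 and 21.9 TPM after D + Q, compared with 13.1, 14.6, 26.9 and 22.6 TPM with vehicle. Loxl1 was at 21.3, 17, 12.7 and 22.2 TPM against 20.2, 22.2, 19.4 and 13.4 TPM, and Loxl2 at 23.8, 14.8, 12.3 and 19.1 TPM against 17.3, 24.5, 18.9 and 19.9 TPM. These values interleave, and the fitted differences were -0.18 (SE 0.26), -0.16 (SE 0.18) and -0.34 (SE 0.17). Fn1 reached 242, 179, 101 and 190 TPM after D + Q, compared with 155, 228, 203 and 198 TPM with vehicle (-0.33, SE 0.18). Aebp1 reached 53.7, 45.8, 32 and 57.6 TPM after D + Q, compared with 43.8, 63.3, 57 and 60.2 TPM with vehicle (-0.35, SE 0.18). D + Q replicate 3 was the lowest of its group in 7 of the 10 genes, and without it the fitted difference of Fn1 was 0.07 and that of Aebp1 -0.03.

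Whether D + Q acted differently in the 2 tissues was tested directly with an interaction term over the 15 mice. None of the 10 genes passed, 1 of them had an unadjusted p-value under 0.05 (4.22% of all genes), and 11 of 17868 genes tested passed (0.0616%). The D + Q difference of Postn was 1.21 higher on the log2 scale in TA than in heart (SE 0.42, 95% interval 0.31 to 2.10, unadjusted p = 0.0119, adjusted p = 0.938), the smallest p-value of the 10. This fit carried labelled sex, with which Postn in TA alone was at 0.34, whereas the separate fits above gave -0.30 in TA and -0.98 in heart, and without a covariate the interaction was 0.62 (SE 0.54). Fn1 followed at 0.73 (SE 0.36, 95% interval -0.05 to 1.5) and Aebp1 at 0.50 (SE 0.25, 95% interval -0.04 to 1.04). The interval of Thbs1, -1.47 to 3.61, left wide room in both directions, and for Sparc, at 0.11 with an interval of -0.34 to 0.56, it was narrower. All adjusted p-values of the 10 genes were at least 0.938, and the number of DEGs among them was also 0 without D + Q heart replicate 3.

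The tissues themselves differed clearly. In vehicle-treated mice 7 of the 10 genes were DEGs, all higher in TA of 5-month-old than in heart of 16-month-old mice, where 36.7% of 17868 genes tested were DEGs and 22.5% were higher in TA. The median log2 difference was 1.54 for the 10 genes and 0.16 for all genes. Thbs4 differed most, with a mean 38.7-fold higher in TA (log2 difference 5.10, SE 0.28, adjusted p = 2.29e-09), and the lowest TA value of 125 TPM compared with a highest heart value of 8 TPM. Tnc was 18.9-fold higher (3.60, SE 0.32, adjusted p = 5.43e-07), Lox 9.26-fold (2.91, SE 0.33, adjusted p = 5.77e-06) and Fn1 6.94-fold (2.83, SE 0.23, adjusted p = 1.74e-07). Aebp1, Loxl2 and Sparc were higher by 1.78, 1.29 and 1.31 on the log2 scale.

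Loxl1, Postn and Thbs1 were not DEGs between vehicle TA and heart. Loxl1 differed by 0.29 (SE 0.19, adjusted p = 0.245) with overlapping groups, 13.4 to 22.2 TPM in TA and 12.8 to 19.2 TPM in heart. Postn differed by 0.63 (SE 0.26, adjusted p = 0.0683), and vehicle heart replicate 2 at 110 TPM lay above TA replicates 1 and 3. Without that heart Postn was a DEG (0.78, adjusted p = 0.0408). Thbs1 was higher in every TA than in every heart, with a difference of 1.27 (SE 0.75, adjusted p = 0.189). Leaving out D + Q TA replicate 1, which enters only the shared estimate of spread, made Thbs1 a DEG (adjusted p = 0.0416), and leaving out D + Q TA replicate 3 did so for Postn (adjusted p = 0.0308). When only the vehicle groups were fitted, both Postn (0.63, SE 0.22, adjusted p = 0.0419) and Thbs1 (1.27, SE 0.43, adjusted p = 0.0381) were DEGs. In all, 8 of the 10 genes were higher in every vehicle TA than in every vehicle heart, compared with 25.9% of all genes.

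In the D + Q groups 8 of the 10 genes were DEGs, all higher in TA, against 34.7% of all genes in either direction and 21.4% higher. All 10 were higher in every TA than in every heart, where 26.8% of all genes were. The median log2 difference was 2.31, with Thbs4 at 5.31 (SE 0.34), Fn1 at 3.56 (SE 0.28), Tnc at 3.55 (SE 0.40) and Lox at 3.31 (SE 0.40). Postn differed by 1.83 (SE 0.32, adjusted p = 0.000454). Loxl1 (0.62, SE 0.23, adjusted p = 0.0503) and Thbs1 (2.34, SE 0.92, adjusted p = 0.0586) missed the threshold narrowly. Each passed it without D + Q TA replicate 3 (adjusted p = 0.0102 and 0.0168), Loxl1 also without vehicle TA replicate 4 (0.0103) and Thbs1 also without vehicle TA replicate 3 (0.0267), and the Thbs1 difference fell to 1.44 without D + Q TA replicate 1. Without D + Q heart replicate 3 the number of DEGs among the 10 genes was again 8, with a median of 2.13. Without a covariate both Loxl1 (0.58, adjusted p = 0.0269) and Thbs1 (2.53, adjusted p = 0.016) were DEGs, as was Loxl1 with a filter of 1 TPM (adjusted p = 0.0471). By expression all 4 D + Q TA mice were male and all 3 D + Q hearts female, so sex and tissue cannot be told apart in this contrast.

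**Figure D4:**
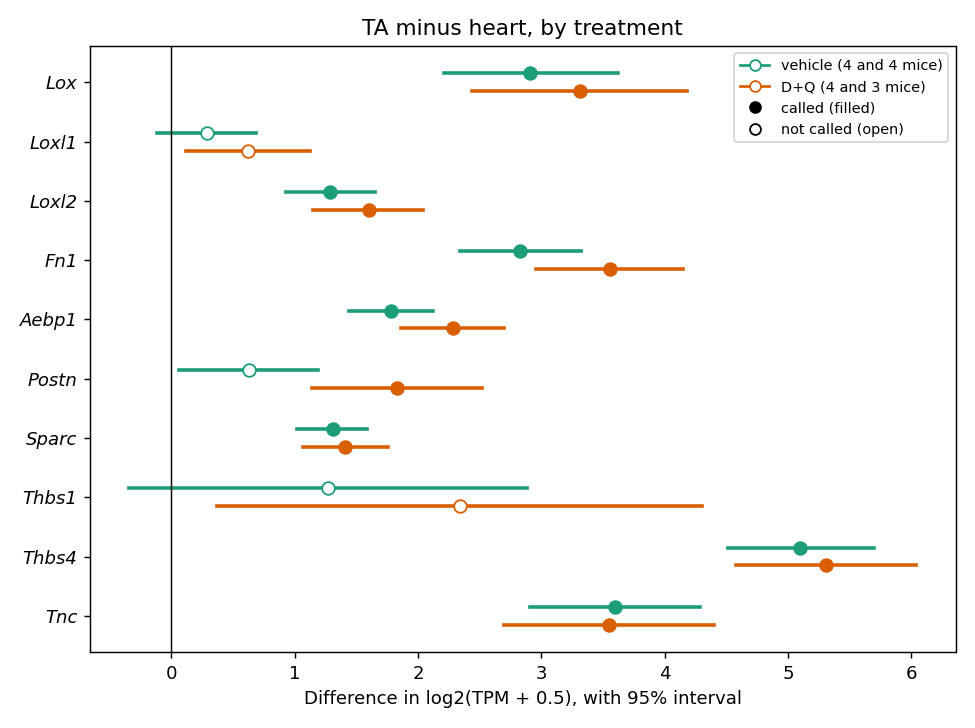
Difference between TA and heart in log2(TPM + 0.5) (x axis) for each gene (y axis) with 95% intervals, within vehicle-treated mice (4 and 4) and within D + Q–treated mice (4 and 3), from a model of all 15 mice with labelled sex. Filled circles are DEGs, 7 in vehicle and 8 in D + Q mice, Thbs4 lies beyond 5 in both, and Loxl1 and Thbs1 are open in both.

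Tendon markers moved with this contrast. The summed TPM of Scx, Tnmd, Mkx, Fmod and Kera was 70.9 to 417 TPM in the 8 TA libraries and 6.08 to 10.7 TPM in the 7 hearts, and all 5 were DEGs in both tissue comparisons. Markers of regenerating muscle (Myh3, Myh8, Pax7, Myog and Myod1) summed to 88.3 to 147 TPM in TA and 0.0158 to 0.403 TPM in heart, again with 5 of 5 DEGs. Macrophage markers summed to 281 to 689 TPM in TA and 137 to 263 TPM in heart, with 4 of 5 DEGs in both comparisons. Fibroblast markers differed less, with 417 to 724 TPM in TA, 419 to 741 TPM in heart and 0 of 5 DEGs in both comparisons. The part of these cell types in the tissue differences of the matrix genes was not tested.

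Related genes were followed in 4 lists. Among 22 genes of crosslinking and collagen maturation, none was a DEG in either D + Q comparison, and 4 in heart and 0 in TA had an unadjusted p-value under 0.05, where 17.6% and 2.99% of all genes did. In heart 13 of the 19 tested were below 0 (50.5% of all genes), with a median of -0.06. The 3 smallest p-values there belonged to the lysyl hydroxylase Plod2 (-0.36, SE 0.08, adjusted p = 0.111), the procollagen C-proteinase enhancer Pcolce (-0.19, SE 0.07, adjusted p = 0.223) and the procollagen C-proteinase Bmp1 (-0.26, SE 0.09, adjusted p = 0.224). In TA the median was -0.17, and the smallest p-values were those of the transglutaminase Tgm2 (0.30, SE 0.15), Plod2 (-0.57, SE 0.28) and Crtap (-0.38, SE 0.19), all with an adjusted p of 0.999. Between the vehicle tissues 11 of 22 were higher in TA (22.5% of all genes) and 0 lower (14.2%), led by P4ha3 (1.14, SE 0.24) and Loxl4 (1.07, SE 0.39). Between the D + Q tissues 9 were higher (21.4% of all genes) and 0 lower (13.3%), led by Loxl4 (1.75, SE 0.48) and Loxl3 (1.45, SE 0.33).

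Matricellular relatives showed 0 DEGs in either D + Q comparison. Relatives with an unadjusted p-value under 0.05 numbered 11 in heart and 1 in TA, next to 17.6% and 2.99% of all genes. In heart 15 of the 17 tested were below 0 (50.5% of all genes), with a median of -0.43. At an unadjusted p under 0.05 and a size above 0.5, 6 of 17 were lower (Ccn2, Ccn3, Ccn5, Comp, Smoc1 and Spp1), next to 3.79% of all genes. Ccn2, the connective tissue growth factor, was at 88.8, 148, 106 and 66.1 TPM in vehicle and 56.6, 58.8 and 51.3 TPM in D + Q hearts (-0.90, SE 0.17, adjusted p = 0.0934), without overlap. Tnxb (-0.46, SE 0.09, adjusted p = 0.0934) and Ccn3 (-0.65, SE 0.14, adjusted p = 0.109) were also separated. In TA the smallest p-values were those of Smoc2 (-0.42, SE 0.13), Sparcl1 (-0.40, SE 0.20) and Thbs3 (-0.46, SE 0.24), all with an adjusted p of 0.999. Between the vehicle tissues 10 of 18 were higher in TA (22.5% of all genes), led by Spp1 (2.99, SE 0.72) and Tgfbi (1.75, SE 0.26), and 3 were lower (14.2%), led by Smoc1 (-1.60, SE 0.23) and Ccn2 (-1.31, SE 0.37). Between the D + Q tissues 11 were higher (21.4% of all genes) and 0 lower (13.3%), led by Spp1 (4.60, SE 0.89) and Comp (3.46, SE 0.49).

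Collagen and elastic fiber genes, the substrates of the lysyl oxidases, had 20 of 21 members below 0 in heart (median -0.36) and 20 of 20 tested below 0 in TA (median -0.39). Of all genes tested, 50.5% were below 0 in heart and 66.4% in TA. None was a DEG in either tissue, and 10 in heart and 5 in TA had an unadjusted p-value under 0.05, against 17.6% and 2.99% of all genes. In heart Col3a1 was at 70.5, 86.1, 80.6 and 69.6 TPM in vehicle and 56.7, 67.6 and 54.7 TPM in D + Q (-0.40, SE 0.07, adjusted p = 0.0934), without overlap. Col1a2 (-0.55, SE 0.11, adjusted p = 0.0977) and the microfibril protein Mfap4 (-1.11, SE 0.24, adjusted p = 0.103) followed. In TA the smallest p-values belonged to Eln (-0.47, SE 0.18), Col6a3 (-0.59, SE 0.23) and Col6a1 (-0.46, SE 0.19), each with an adjusted p of 0.999 and overlapping groups. Between the vehicle tissues 14 of 21 were higher in TA (22.5% of all genes), led by Col1a1 (3.40, SE 0.18) and Col12a1 (3.34, SE 0.32), and 1, Fbln1, was lower (-1.27, SE 0.19, where 14.2% of all genes were). Between the D + Q tissues the counts were 16 and 1 (21.4% and 13.3% of all genes), with Col12a1 at 3.69 (SE 0.39), Col1a1 at 3.64 (SE 0.22) and Fbln1 at -0.84 (SE 0.23).

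Cell surface receptors for these proteins were nearly balanced in heart, with 9 of 17 below 0 (50.5% of all genes) and a median of -0.02. The collagen receptor Ddr2 (-0.35, SE 0.07, adjusted p = 0.103), the integrin Itga8 (-0.91, SE 0.21, adjusted p = 0.116) and Lrp1 (-0.48, SE 0.12, adjusted p = 0.117) had the smallest p-values. In TA these were Sdc4 (0.35, SE 0.15), Lrp1 (-0.28, SE 0.13) and Itga1 (-0.37, SE 0.18), with an adjusted p of 0.999. None was a DEG with D + Q, and 5 in heart and 2 in TA had an unadjusted p-value under 0.05 (17.6% and 2.99% of all genes). In TA 16 of 17 were below 0 (median -0.20), as were 66.4% of all genes. Between the vehicle tissues 6 of 18 were higher in TA and 3 lower (22.5% and 14.2% of all genes), and between the D + Q tissues 6 and 2 (21.4% and 13.3%). The thrombospondin receptor Cd36 was lower in TA in vehicle (-1.65, SE 0.12) and in D + Q mice (-2.02, SE 0.14), as was Itga9 (-1.83, SE 0.24, and -1.84, SE 0.30). Cacna2d1 was higher (1.91, SE 0.11, and 1.67, SE 0.13), as were Itga11 in vehicle mice (1.86, SE 0.15) and Sdc4 in D + Q mice (1.80, SE 0.49).

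Within the groups, several of the 10 genes tended to be high or low in the same mice, though not all. Pearson correlations between pairs of the genes, over deviations of the 15 mice from their group means, ranged from -0.07 (Loxl1 and Thbs4) to 0.88 (Loxl2 and Fn1). In vehicle TA the highest values were spread over replicates 2, 3 and 4, with 5, 3 and 2 genes. Vehicle heart replicate 2 and D + Q heart replicate 2 each held the highest value of their group for 9 of the 10 genes, and D + Q TA replicate 1 did for 8. Vehicle TA replicate 1 held the lowest for 8 genes, and D + Q TA replicate 3 and D + Q heart replicate 3 for 7 each. Thbs1 deviated most, by 2.67 and 1.67 on the log2 scale in D + Q TA replicate 1 and vehicle TA replicate 3 and by -1.70 in D + Q TA replicate 3. Among 17858 genes outside the 10, the 5 whose deviations from the group means ran most alike to the average of the 10 over the 15 mice were Man1a2 (Pearson correlation 0.96), Nup54, Srgap1 and Rrbp1 (0.95 each) and Slfn8 (0.94). These correlations are a description: they were the highest of many, rest on the same libraries and carry no test.

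**Figure D5:**
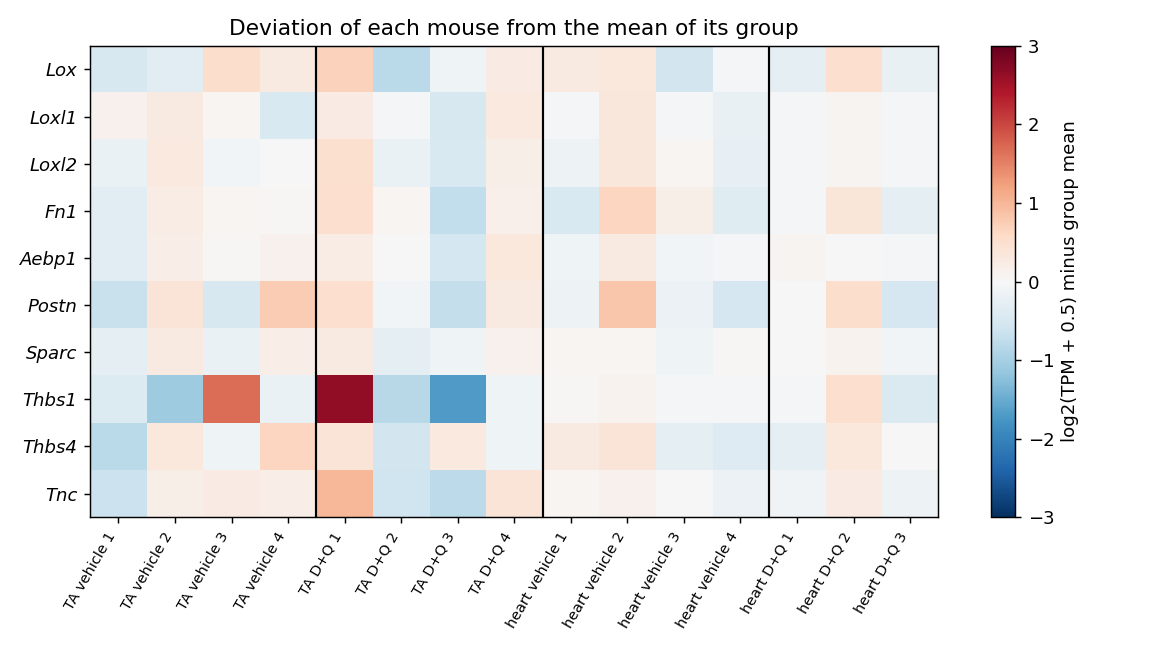
Deviation of each of the 15 mice (x axis) from the mean of its group in log2(TPM + 0.5) for each gene (y axis). Red is above and blue below the group mean, with Thbs1 in D + Q TA replicate 1 reaching 2.67, and columns of one color mark mice in which most of the 10 genes deviated together.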

How the data were processed

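RNA-seq libraries were prepared from total RNA of snap-frozen TA muscles and hearts. Per the labels and methods, the authors trimmed reads with Trim Galore 0.6.10, quantified them with Salmon 1.10.3 on GRCm39 and deposited TPM, summarised per gene, in a single table. The annotation release is not given in the sources used here. Of 56980 identifiers, 56236 were found in GENCODE M39. TPM values carry no depth, so no counting error can be stated.

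Samples were grouped by their labels. From the TPM, log2(TPM + 0.5) was fitted with limma 3.58.1 (R 4.3.3, eBayes with trend), keeping genes that reached 0.5 TPM in 3 or more mice and adjusting p-values over all genes tested (Benjamini-Hochberg). The TA model (8 mice) held 1 surrogate variable, estimated in 5 re-weighting rounds, and the heart model (7 mice) labelled sex. Comparisons between tissues and the interaction used all 15 mice with labelled sex. The study's count model was not run, because counts were not used here. The power of each fit was gauged on simulated data in which 200 genes were shifted by 1 or 2 (log2). Every D + Q difference of the 10 genes in TA and in heart was smaller than 1, so power at their sizes was not gauged. Noise was drawn independently for each gene with the fitted spread, and the covariates were kept as estimated. The simulation thus cannot show how well the surrogate variable is estimated or what the atrial difference does to the heart fit. Shifts of 1 (log2) were recovered for 78 genes in TA, 142 in heart and 54 in the interaction, and shifts of 2 for 188, 185 and 156. False calls numbered 3, 3 and 2 at a shift of 1, and 8, 7 and 10 at a shift of 2.

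All 10 genes are named in every comparison. From each related list, the DEGs with D + Q or else the 3 genes with the smallest p-values per tissue are named, and between tissues the 2 largest DEGs in each direction. Ccn2 to Spp1 under the unadjusted threshold and single marker genes were chosen after seeing their values. The 10 genes and the lists were chosen with earlier results of these data known. Promoter windows are RefSeq sequences (GRCm38.p6) placed on GRCm39 by exact match. Alternatives were other pseudocounts, filters, scaling, covariates, a replicate block, no trend, and leaving out each mouse. Replicate numbers are shared between groups but belong to different animals, and 0 pairs of libraries were identical (correlations within groups 0.949 to 0.982).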

Additional observations from a re-analysis of the deposited data

Results flagged for a closer look

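Within groups of 4 mice, the gap between the most extreme mouse and its neighbor was compared with the whole range of the group (Dixon's ratio, at its 95% critical value) for 30 groups of values, of which chance marks about 1 in 20. Thbs1 in D + Q TA was set apart by replicate 1 at 277 TPM (ratio 0.901), and in vehicle TA by replicate 3 at 94.2 TPM (ratio 0.857). Tnc in vehicle TA was set apart by replicate 1, which was low at 10.3 TPM (ratio 0.892). In vehicle heart, Sparc was low in replicate 3 at 164 TPM (ratio 0.923) and Aebp1 high in replicate 2 at 19.1 TPM (ratio 0.837).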

How the results depend on the processing

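Of the 10 genes, none was a DEG with D + Q in TA or in the interaction under any alternative run, and in heart 1 gene, Aebp1, was under median-of-ratios scaling and without vehicle replicate 3. That scaling moved the median of all genes by 0.07 in TA and 0.01 in heart. In TA, differences turned positive for Lox (0.0019) and Thbs1 (0.55) without a covariate, and for Postn (0.34) and Thbs4 (0.08) with labelled sex or males only. Leaving out D + Q replicate 1 and vehicle replicate 3, chosen after seeing the data, gave Thbs1 0.20 and 1 DEG among all genes. In heart the count of DEGs among all genes was 51, but 0 without a filter on low values, 13 without the trend and 25 with sex read from expression. With the atrial score it was 0 (median of the 10 genes -0.19, Loxl2 0.23, Fn1 1.11). The fit without vehicle replicates 2 and 3, chosen after seeing the data, rests on D + Q replicate 3 alone, so no count is given. In the interaction, Tnc was at 0.0092 with a pseudocount of 0.1 and at 0.04 with sex from expression, Sparc at -0.0066 and Thbs4 at -0.06 without a covariate, and 6 genes were DEGs without a filter. Between the D + Q tissues 4083 genes were DEGs when only these groups were fitted. When only the vehicle groups were fitted, Postn (adjusted p = 0.0419) and Thbs1 (0.0381) were DEGs between the vehicle tissues. Between the D + Q tissues, Loxl1 (0.0269) and Thbs1 (0.016) were without a covariate, and Loxl1 (0.0471) was with a filter of 1 TPM. The cause of these changes was not tested.

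Replicate numbers did not pair the mice (correlations of same-numbered deviations -0.28 to 0.03). With the replicate number as a block, TA gave Lox 0.0019 and Thbs1 0.55, heart 4 DEGs among all genes, and the interaction 5, with Sparc at -0.05 and Thbs4 at -0.08. The block made Loxl1 (adjusted p = 0.0255) and Thbs1 (0.0282) DEGs between the D + Q tissues and changed no other call of the 10 genes.

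Leaving out each mouse in turn, DEGs among all genes ranged from 0 to 2 in TA, 0 (without vehicle replicate 2) to 136 (without vehicle replicate 3) in heart and 5 to 14 in the interaction. In heart the median of the 10 genes ranged from -0.59 to -0.28 and the DEGs among them from 0 to 1. In TA, ranges were -0.32 to 0.08 for Lox, -0.43 to 0.07 for Fn1, -0.63 to 0.46 for Postn and -0.34 to 0.37 for Thbs1. In the interaction, they were -0.0023 to 0.24 for Sparc, -0.15 to 0.48 for Thbs4 and -0.38 to 0.21 for Tnc.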
